A study of Mus musculus with 6 samples.

Results

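Actins are the proteins that polymerise into thin filaments, and alpha-actinins are rod-shaped dimers that crosslink those filaments. In mouse, 6 genes encode the conventional actins and 4 encode the alpha-actinins. All 10 were among the 16854 genes measured in C2C12 cells, a mouse myoblast line that forms myotubes when serum is reduced. The genes were taken by symbol as the complete families: Acta1 and Actc1, the skeletal and cardiac actins of the sarcomere; Acta2 and Actg2, the smooth muscle actins; Actb and Actg1, the cytoplasmic actins; Actn2 and Actn3, the alpha-actinins of the sarcomere; and Actn1 and Actn4, the widely expressed alpha-actinins.

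The tested cells carried a stable short hairpin RNA against Adamtsl2, a secreted matrix glycoprotein, and the control cells carried a scrambled hairpin. Each group had 3 libraries of poly(A)-selected RNA, taken on day 3 after the medium of confluent cells had been changed to DMEM with 2% horse serum. The series title places the study in Wnt signalling during myogenesis, and the comparison made here asks how RNA of the actin and alpha-actinin isoforms differed between these groups. The sources used here do not give the promoter that drives the hairpins or say whether the cells were clones or pools. Depletion of Adamtsl2 and other differences between the stably modified lines cannot be told apart. Nothing in the labels says that replicates came from separate cultures, so p-values measure only the spread between these libraries, which may be technical.

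Striated muscle cells replace much of their cytoplasmic actin with sarcomeric actin as they differentiate. The cardiac isoform is prominent in developing skeletal muscle and the skeletal isoform in mature fibres. In the sarcomere, alpha-actinin anchors thin filaments at the Z-disc, with Actn2 in all fibres and Actn3 in fast fibres. Acta2 is also made by myoblasts and myofibroblasts outside smooth muscle. Many actin genes carry a CArG box, the site bound by serum response factor (SRF), whose coactivators of the MRTF family are themselves held inactive by unpolymerised actin.

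Because SRF sites tie several of these genes together, the CArG box (both strands, which read alike for this motif) was searched in RefSeq promoter windows of 300 bases, 250 before and 50 after the annotated start, in build GRCm38.p6. Windows were found for 7 of the 10 genes, all but Actb, Actg2 and Actn3, and 3 held a box: Acta1, Actc1 and Actg1. Of 32851 windows in the table, 1.63% held a box. The 3 boxes are shown in capitals, each with 25 bases on either side, on the strand of the gene:
Acta1: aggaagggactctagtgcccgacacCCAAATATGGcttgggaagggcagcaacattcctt
Actc1: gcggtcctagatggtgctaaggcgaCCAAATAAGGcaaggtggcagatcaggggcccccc
Actg1: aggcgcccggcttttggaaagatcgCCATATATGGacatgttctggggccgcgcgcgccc

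The Acta1 stretch is chr8:123894814-123894873, the Actc1 stretch chr2:114052888-114052947 and the Actg1 stretch chr11:120348551-120348610, all on the minus strand. No annotated exon of these genes overlapped them, and the Actc1 stretch lay inside 1 longer annotated transcript. The boxes began 73, 47 and 90 bases before the RefSeq start of Acta1, Actc1 and Actg1. These distances hold for that annotated start only, and other motifs searched in the windows are not reported here. The windows of Acta2, Actn1, Actn2 and Actn4 held no match to these letters, which says nothing about binding. A box was found at the sarcomeric pair Acta1 and Actc1, which were low in the knockdown, and at the cytoplasmic Actg1, whose groups overlapped. The part of the box in these values was not tested.

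Depth and identity bear on every value. Whole reads recovered from the deposited values totalled 37346439 to 50329438 per library, and Adamtsl2 itself had normalised counts of 7.83 to 23.2 in knockdown libraries and 1266 to 1325 in control libraries. Knockdown library 3 stood apart: its log2 values correlated with those of knockdown libraries 1 and 2 at 0.917 and 0.920 across genes, against 0.993 to 0.995 among controls, and the nuclear RNA Malat1 took 2.83% of its reads, against 0.302 to 0.515% elsewhere. Of the 12 skeletal myotube markers, 12 were lower in the knockdown, with summed normalised counts of 7301 to 8543 in knockdown and 1173642 to 1175986 in control libraries. The label of differentiating muscle cells thus matched its markers in the control group. Markers of undifferentiated myoblasts were mixed, with 3 of 8 higher and 4 lower in the knockdown. Over all genes tested 21.7% were higher and 23.5% lower by the limma test described below. The myoblast marker sums were 9567 to 10146 in knockdown and 25453 to 26326 in control libraries. Cdh15 made up most of the control sum, at 16235, 16434 and 16497 counts. Marker sums for other lineages, as ranges for knockdown and then control libraries, were 8853 to 16092 and 3599.7 to 3701 for adipocytes, 34.0 to 160 and 191 to 241 for endothelium, and 1054 to 1374 and 236 to 281 for macrophages. Of these lists 3 of 8, 3 of 7 and 5 of 7 genes were in the table. Of 3 adipocyte markers tested 2 were higher and 1 was not called. Of 2 endothelial markers 1 was higher and 1 lower, and of 5 macrophage markers 2 were higher and 1 lower. Cd14 made up most of the macrophage sum in knockdown libraries, at 948, 1120 and 1182 counts. Vwf made up most of the endothelial sum in control libraries, at 217, 184 and 235 counts. The part of these lineages in the results was not tested.

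In the knockdown, 6 of the 10 genes fell and 4 did not pass the test. All 4 sarcomeric genes fell by more than 5 on the log2 scale, the smooth muscle pair fell about 3-fold, and the cytoplasmic actins and widely expressed alpha-actinins did not pass. Differences were tested with limma on log2(normalised count + 1) across 16245 genes, two-sided, with Benjamini-Hochberg adjustment and a threshold of 0.05. At that threshold 45.2% of all genes tested were called, 23.5% lower and 21.7% higher. No member was called higher by limma, edgeR or DESeq2, and 0 were higher at an unadjusted p under 0.05 in limma. Fold changes of -5 or lower on the log2 scale, found for 4 of the 10 members, were found for 2.59% of genes tested. That bound was not planned and lies next to the value of Actn3, -5.25, so this is a description and no test. Knockdown values lay below every control value for the 6 genes that fell, and for 32.7% of all genes tested. In bulk RNA, fewer myotubes and less RNA per myotube cannot be told apart. All 10 members passed the filter of at least 10 normalised counts in 3 libraries, and 9 had at least 10 in every library; Actn2 passed through its control values alone. With 3 libraries against 3, an exact permutation test of a single gene cannot go below 0.1, and each of the 6 genes that fell reached that value.

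**Figure D1:**
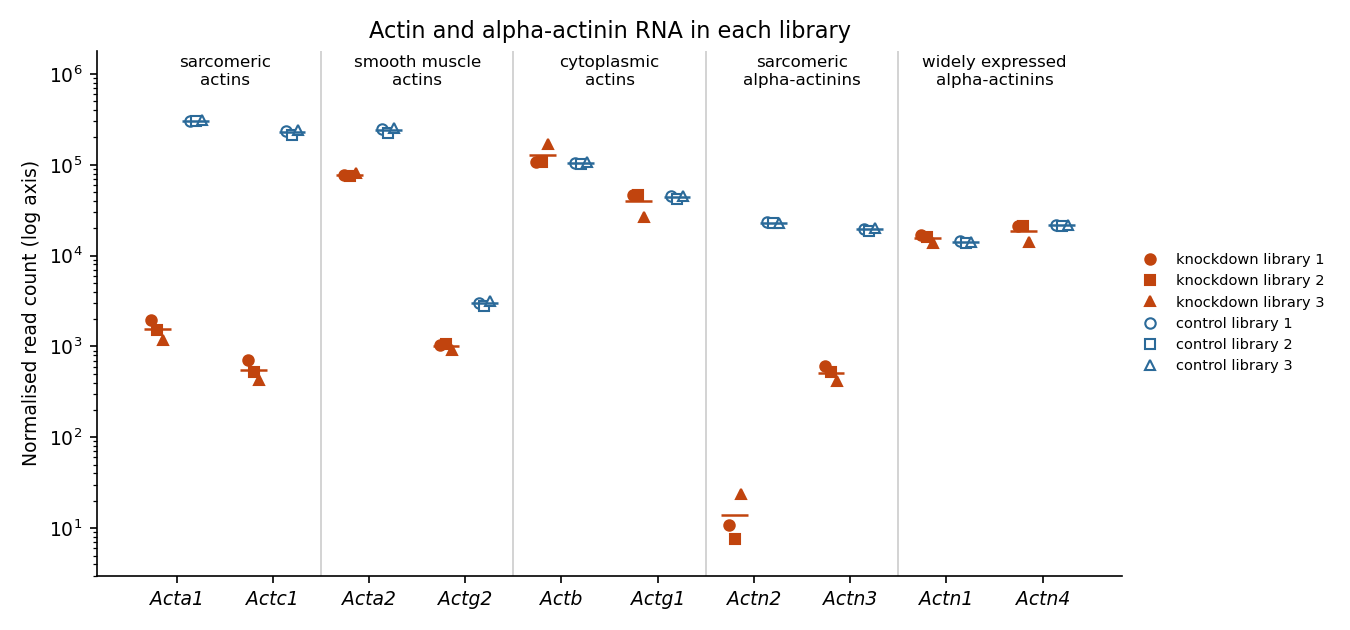
Normalised read counts on a log axis for each gene, with 1 symbol per library and a horizontal bar at the group mean (n = 3 per group). Acta1, Actc1, Actn2 and Actn3 are separated by more than an order of magnitude, Acta2 and Actg2 by about 3-fold, and the other 4 genes overlap between groups.

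The sarcomeric actins, which had the highest levels per kilobase of exon of any member in control cells, fell in the knockdown. Acta1 (ENSMUSG00000031972, GRCm38 chr8:123891769-123894751, minus strand) had normalised counts of 1977, 1529 and 1193 in knockdown libraries 1 to 3 and 301160.5, 306503 and 308505 in control libraries 1 to 3. The groups did not overlap, and the control libraries differed from each other by far less than from any knockdown library. Means were 1566 ± 394 in the knockdown and 305389 ± 3797 in control (SD, n = 3 each), a 195-fold lower level. This was a log2 fold change of -7.64 ± 0.21 (SE) at an adjusted p of 6.7e-06 (limma).

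Actc1 (ENSMUSG00000068614, chr2:114047282-114053548, minus strand) had counts of 708, 518 and 430.4 in the knockdown and 233583, 214763 and 241466 in control. Its means were 552 ± 142 in the knockdown and 229938 ± 13720 in control (SD, n = 3 each), 417-fold lower, with a log2 fold change of -8.73 ± 0.21 (SE) and an adjusted p of 4.5e-06 (limma). Both sarcomeric actins were lowest in knockdown library 3, and both were detected in every knockdown library, with 1067 to 2385 recovered reads for Acta1 and 385 to 854 for Actc1 in knockdown libraries.

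The smooth muscle actins fell together and by similar amounts. Acta2 (ENSMUSG00000035783, chr19:34241090-34255590, minus strand) had counts of 76909, 75681 and 81607 in the knockdown and 246837, 222314 and 254667 in control. The highest knockdown library was well below the lowest control library. Its means were 78065 ± 3128 in the knockdown and 241273 ± 16879 in control (SD, n = 3 each), 3.09-fold lower, with a log2 fold change of -1.63 ± 0.20 (SE) and an adjusted p of 0.0013 (limma). Actg2 (ENSMUSG00000059430, chr6:83512905-83536265, minus strand), the enteric isoform, had counts of 1040.5, 1075 and 905 in the knockdown and 2999.6, 2775 and 3164 in control. It was 2.96-fold lower, with a log2 fold change of -1.57 ± 0.12 (SE) and an adjusted p of 0.000205 (limma). Of these 2 transcripts, Acta2 was abundant and Actg2 was the rarest actin of control cells per length.

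Markers of smooth muscle did not form one pattern beside Acta2 and Actg2. Of 12 such markers 11 were tested, with 5 lower and 2 higher in the knockdown, and a median log2 fold change of 0.36. Cnn1, Tagln and Mylk fell as Acta2 and Actg2 did, with log2 fold changes of -3.15, -2.86 and -1.97. The 2 that rose were Cald1 at 1.47 and Synm at 1.35. Their summed normalised counts were 54263 to 109660.4 in knockdown and 211794 to 216364 in control libraries. Desmin and calsequestrin 2, which skeletal myotubes also make, are among the 5 that fell and carry the lower sum. Without these 2 genes, left out after their values were seen, the sums of the other 9 turned direction. They were 50339 to 105003 in knockdown and 34064 to 36651 in control libraries. That turn rests on Cald1, with counts of 28685, 30051 and 87224 in knockdown and 15437, 15073 and 15116 in control. With Cald1 also left out, the sums of the rest overlapped between groups. Myh11, the myosin heavy chain that defines smooth muscle, had normalised counts of 29.0, 26.8 and 41.4 in the knockdown and 9.81, 22.7 and 17.1 in control, with an adjusted p of 0.089 (limma). Fibroblast markers were also mixed, with 5 of 11 tested higher and 2 lower, a median log2 fold change of 0.57 and sums of 498431 to 664273 in knockdown and 1048801 to 1136331 in control libraries. The part of either cell type in the values of Acta2 and Actg2 was not tested.

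The cytoplasmic actins did not differ beyond the spread of the libraries. Actb (ENSMUSG00000029580, chr5:142903115-142906754, minus strand), a common reference gene, had counts of 106711, 108182 and 169831 in the knockdown and 105482, 102374 and 107652 in control. Knockdown library 1 lay inside the control range, library 2 just above it and library 3 well above it. The means were 128241 ± 36026 in the knockdown and 105169 ± 2653 in control (SD, n = 3 each), with a log2 fold change of 0.25 ± 0.26 (SE) and an adjusted p of 0.47 (limma). Without knockdown library 3 the log2 fold change of Actb was 0.03, with an adjusted p of 0.65 (limma).

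Actg1 (ENSMUSG00000062825, chr11:120345690-120348542, minus strand) went the other way in that library. Its counts were 46607, 46269 and 26469.6 in the knockdown and 45186, 42506 and 44947 in control. Knockdown libraries 1 and 2 were slightly above every control library and library 3 was below all of them, so the groups overlapped. Its log2 fold change of -0.20 ± 0.26 (SE) had an adjusted p of 0.57 (limma), and it was 0.07 without knockdown library 3, with an adjusted p of 0.24. Identity to other genes limits the values of Actg1 more than those of the other members: 43.5% of the 150-base windows of its principal transcript were found unaltered in other annotated genes, the pseudogenes Gm12715, Gm16385 and Gm8399, so its reads may be split or lost. Gm12715 had counts of 176, 152 and 10.1 in the knockdown and 172, 159 and 171 in control, low in knockdown library 3 as Actg1 was.

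Among the alpha-actinins, the sarcomeric forms fell and did so by very different amounts. Actn2 (ENSMUSG00000052374, chr13:12269426-12340760, minus strand) had counts of 10.8, 7.53 and 23.5 in the knockdown and 23437, 22840.1 and 22992 in control. The knockdown values rest on 13, 9 and 21 recovered reads, against 18083 to 24200 in control libraries. Its means were 13.9 ± 8.43 in the knockdown and 23089.8 ± 310.2 in control (SD, n = 3 each), 1658-fold lower, with a log2 fold change of -10.74 ± 0.38 (SE) and an adjusted p of 1.5e-05 (limma). Without knockdown library 3, which held the most Actn2 of the knockdown libraries, the log2 fold change was -11.17.

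Actn3 (ENSMUSG00000006457, chr19:4861216-4877909, minus strand), the fast-fibre form, had counts of 604, 529 and 416 in the knockdown and 19546, 18685 and 20157 in control. Its control level was close to that of Actn2, but the knockdown cells kept 516 ± 94.5 counts, against 19463 ± 739.8 in control (SD, n = 3 each), a 37.7-fold lower level. Its log2 fold change of -5.25 ± 0.16 (SE) had an adjusted p of 9.2e-06 (limma). Actn3 and Acta2 lie on the same chromosome, far apart, and the other 8 genes lie on 8 different chromosomes.

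The widely expressed alpha-actinins, which crosslink actin at adhesions and stress fibres, stayed near control levels. Actn1 (ENSMUSG00000015143, chr12:80167547-80260371, minus strand) had counts of 17035, 16226 and 13637 in the knockdown and 14348, 13910.2 and 14061 in control. Knockdown libraries 1 and 2 were above every control library and library 3 was below all of them. Its log2 fold change of 0.14 ± 0.14 (SE) had an adjusted p of 0.44 (limma). Without knockdown library 3 it was 0.24 with an adjusted p of 0.00087, which would make Actn1 the 1 member called higher, in a fit that called 38.6% of all genes tested higher and 39.9% lower.

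Actn4 (ENSMUSG00000054808, chr7:28893248-28962340, minus strand) had counts of 21157, 21269 and 14248 in the knockdown and 21842, 21151 and 21476 in control. Libraries 1 and 2 of the knockdown lay inside the control range and library 3 lay below it. Its log2 fold change of -0.21 ± 0.20 (SE) had an adjusted p of 0.43 (limma), and it was -0.02 without knockdown library 3. Parts of both transcripts overlap other annotated genes on the opposite strand: 5.97% of 150-base windows of Actn1 were also found in the antisense gene Gm47766 and 4.48% of those of Actn4 in Capn12. The sources used here do not give the strand setting of the counting, so reads of these pairs cannot be told apart. Capn12 had 15.8 to 36.9 counts in knockdown and 20.2 to 42.8 in control libraries.

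**Figure D2:**
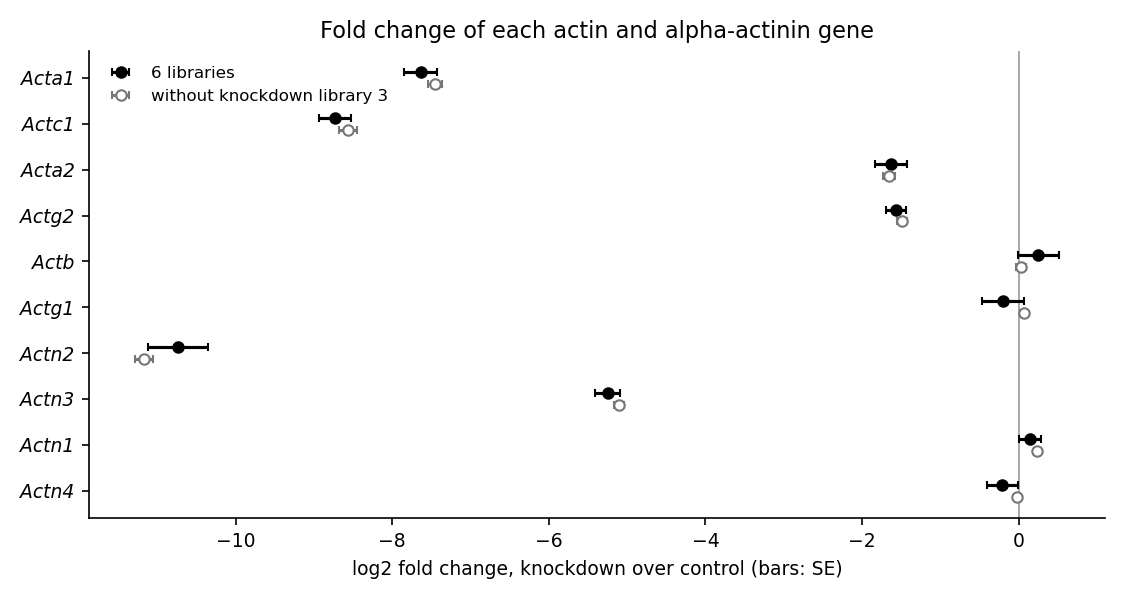
Log2 fold change, knockdown over control, of each gene from limma, with bars for the standard error, for all 6 libraries (filled) and without knockdown library 3 (open). The 6 genes that fell keep their sign and rough size, from -1.49 for Actg2 to -11.17 for Actn2 without that library, while Actb, Actg1 and Actn4 move to within 0.1 of 0.

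In the authors' deposited table the 6 genes that fell here had adjusted p-values from 0 as listed for Actc1 to 6.5e-31 for Actg2, and the other 4 had adjusted p-values of 0.33 for Actb, 0.36 for Actn1, 0.48 for Actn4 and 0.66 for Actg1. The 2 comparisons were made on the same libraries, so this is one set of measurements read by different models. In limma, leaving out any 1 of the 6 libraries left 6 members lower.

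Members of each family are similar in sequence, which limits how reads can be assigned. Between the 6 actins the coding sequences were 81.5 to 88.7% identical, highest between Actb and Actg1, and between the 4 alpha-actinins 73.9 to 78.9%. No 150-base window of the principal transcript of any member occurred in another member. Of 50-base windows, at most 2.57% (Actb) occurred in another member, so few short stretches fit more than 1 isoform. With all other annotated genes counted, 56.7% of the 50-base windows of Actg1, 14.2% of those of Actb, 10.2% of those of Actn1 and 7.39% of those of Actn4 occurred elsewhere. For Actb, the genes that share windows include the pseudogenes Gm12715, Gm16385 and Gm8399 named for Actg1. Actc1 and Actg2 shared 0% of 50-base windows with any other annotated gene.

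Levels per length ranked the genes differently in each group. Counts per kilobase of annotated exon averaged 47869 ± 13447 for Actb in the knockdown, followed by 35549 ± 1424 for Acta2 and 14967 ± 4338 for Actg1. Next in the knockdown came Actn4 at 3083 ± 656 and Actn1 at 2825 ± 321, the only neighbours in this order whose libraries overlapped. Acta1 at 1019.8 ± 256, Actg2 at 647 ± 57.5, Actc1 at 341 ± 87.7, Actn3 at 178 ± 32.6 and Actn2 at 3.67 ± 2.22 counts per kilobase completed the order (SD, n = 3 each).

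In control cells the order began with Acta1 at 198821 ± 2472 counts per kilobase, then Actc1 at 142112 ± 8479, Acta2 at 109869 ± 7686, Actb at 39257 ± 990.2 and Actg1 at 16634 ± 558. Actn3 at 6709 ± 255, Actn2 at 6084 ± 81.7, Actn4 at 3507 ± 56.4, Actn1 at 2549.5 ± 40.2 and Actg2 at 1914 ± 125 followed (SD, n = 3 each), and no neighbours overlapped. Skeletal actin RNA, first of the 10 genes in control cells, was sixth in the knockdown, and Actb moved up to the first place without passing the test itself. Exon lengths are the union over annotated transcripts, 2679 bases for Actb where its principal transcript has 1920, so levels of genes with many transcripts are set low. For Actn2 the union is 3795 bases and the principal transcript 3013, and for Actn3 they are 2901 and 2887. The control order of Actn3 above Actn2 therefore holds for union lengths only. Undivided control counts averaged 23089.8 for Actn2 and 19463 for Actn3, and principal transcript lengths also put Actn2 above Actn3.

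As a share of the summed counts per kilobase of the 6 actins, sarcomeric actin made up 1.82, 1.40 and 0.930% in the knockdown libraries and 66.6, 67.9 and 66.7% in control libraries. Means were 1.38 ± 0.45% in the knockdown and 67.0 ± 0.72% in control (SD, n = 3 each; exact two-sided permutation p = 0.1, the smallest possible with 20 splits). Cytoplasmic actin took 60.5, 61.3 and 65.4% in the knockdown and 11.0, 11.1 and 10.9% in control. The smooth muscle share was 37.7, 37.3 and 33.7% in the knockdown and 22.4, 21.0 and 22.5% in control, higher by 14.2 percentage points although Acta2 itself fell. That last difference depended on how length was treated, at 5.61 points with undivided counts and 9.43 points with the length of the principal transcript. The levels of the other shares depended on length too, with a lower sarcomeric share in control libraries from undivided counts. Their differences between groups kept their sign.

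Alpha-actinin RNA showed the same division. Actn2 and Actn3 together were 3.13, 2.80 and 3.03% of the summed counts per kilobase of the 4 alpha-actinins in the knockdown and 67.7, 67.6 and 68.3% in control, with means of 2.98 ± 0.17% and 67.9 ± 0.35% in those groups (SD, n = 3 each; exact permutation p = 0.1). In the knockdown nearly all of that remainder was Actn3, at 2.77 to 3.09% of the total, against 0.0301 to 0.125% for Actn2. Control cells held similar amounts of each, at 35.0 to 36.5% for Actn3 and 31.8 to 32.7% for Actn2. These percents depend on the union exon lengths, and undivided control counts were higher for Actn2 than for Actn3.

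**Figure D3:**
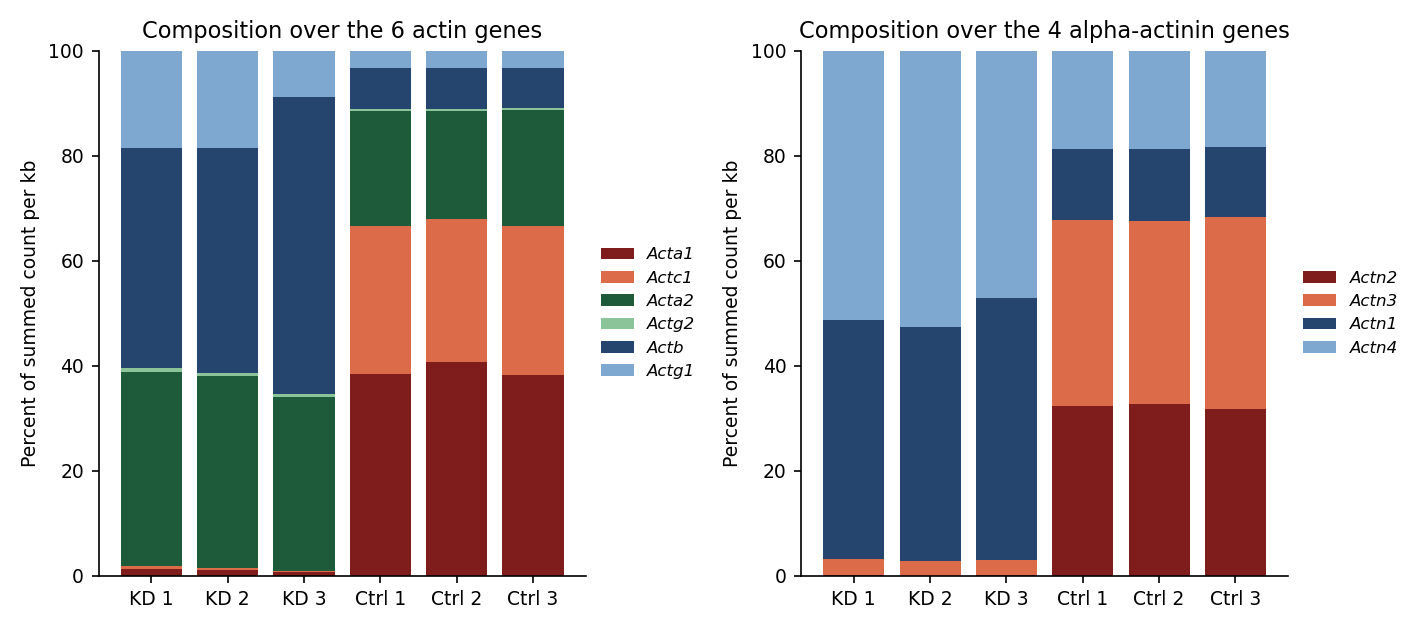
Percent of summed normalised count per kilobase taken by each of the 6 actin genes (left) and the 4 alpha-actinin genes (right), 1 bar per library, with knockdown (KD) left of control (Ctrl). Acta1 and Actc1 fill 66.6 to 67.9% of the actin bar in control libraries and 0.930 to 1.82% in knockdown libraries, and Actg1 is a smaller part of the bar in knockdown library 3 than in libraries 1 and 2.

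Actin RNA as a whole was lower in the knockdown. The 6 actins took 0.572, 0.574 and 0.629% of all normalised counts in the knockdown libraries and 1.97, 1.89 and 2.01% in control libraries (exact permutation p = 0.1). Their summed normalised count averaged 249214 ± 27042 in the knockdown and 928962 ± 35009 in control (SD, n = 3 each), 3.73-fold lower. Of the difference between these sums, Acta1 made up 44.7%, Actc1 33.7% and Acta2 24.0%, while Actb, higher on average in the knockdown, made up -3.39%. The 4 alpha-actinins took 0.0948, 0.0935 and 0.0635% of all normalised counts in the knockdown and 0.167, 0.162 and 0.165% in control.

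Ratios between the isoforms of a class were set side by side per library, as log2 ratios of counts per kilobase with 1 added to each count. Actc1 to Acta1 was -1.56, -1.64 and -1.54 in the knockdown and -0.44, -0.59 and -0.43 in control, a difference of -1.09. Cardiac actin thus lost more than skeletal actin in every knockdown library. Actn2 to Actn3 was -6.07, -6.34 and -4.48 in the knockdown and -0.13, -0.10 and -0.20 in control, a difference of -5.49. Actn1 to Actn4 was -0.17, -0.24 and 0.08 in the knockdown and -0.46 in each control library, a difference of 0.35.

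For those 3 ratios the groups did not overlap, and the exact permutation p was 0.1, the smallest possible, or 0.17 after Benjamini-Hochberg adjustment over the 5 ratios, so none can pass 0.05 in this design. The other 2 ratios overlapped. Acta2 to Actg2 was 5.71, 5.64 and 5.996 in the knockdown and 5.87, 5.83 and 5.83 in control, differing by -0.06 (exact permutation p = 0.7, adjusted 0.88). Actb to Actg1 was 1.18, 1.21 and 2.67 in the knockdown and 1.21, 1.26 and 1.25 in control, differing by 0.45 with all 3 knockdown libraries and by -0.04 without library 3 (exact permutation p = 0.9 with all 6).

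**Figure D4:**
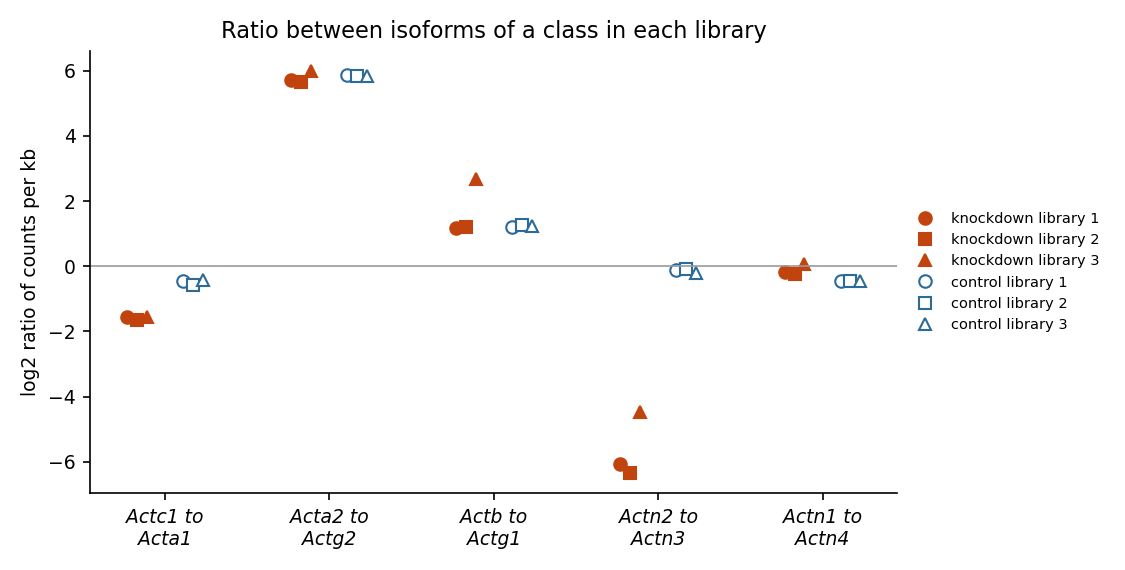
Log2 ratio of counts per kilobase between isoforms of the same class, with 1 symbol per library (n = 3 per group) and knockdown left of control. Actc1 to Acta1 and Actn2 to Actn3 are lower in all 3 knockdown libraries, and Actb to Actg1 is at 2.67 in knockdown library 3 against 1.18 to 1.26 in the other 5 libraries.

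Genes with the most similar profiles over the 6 libraries were found by the Euclidean distance between mean-centred log2(count + 1) values, a description in which the difference between groups weighs most. Nearest to Acta1 was Klhl41, a muscle Kelch protein, at a distance of 0.14, followed by the glycogen phosphorylase Pygm at 0.38. Klhl41 had normalised counts of 162, 120.5 and 105 in the knockdown and 26327, 25652 and 26687 in control, without overlap. Nearest to Actc1 were the embryonic myosin Myh3 (0.37), the membrane repair protein Trim72 (0.41) and the muscle methyltransferase Smyd1 (0.42). Nearest to Actn2 were Dhrs7c, an enzyme of the sarcoplasmic reticulum, at 0.55, and the fast and perinatal myosins Myh4 (0.65) and Myh8 (0.91). Actn3 was nearest to the sugar transporter Slc2a6 (0.12), the acetylcholine receptor subunit Chrna1 (0.17) and Smim5 (0.24).

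Among the genes nearest to Acta2 were Fignl1 and Coq10b, each at 0.13. Ak1, an adenylate kinase, at 0.053, Atp5a1, of the ATP synthase, at 0.11 and Fam53b at 0.13 were nearest to Actg2. The profile of Actb, with its high value in knockdown library 3, was nearest to those of Mrpl10 (0.042), Srpk2 (0.083) and Cebpg (0.089). Vars2 (0.065), Adgre5 (0.069) and Nt5c3b (0.081) were nearest to Actg1, Stat3 (0.063), Sgms1 (0.072) and Rbck1 (0.073) to Actn1, and Rufy1 (0.038), Rab22a (0.044) and the integrin subunit Itga5 (0.058) to Actn4.

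Genes that regulate, assemble or bind actin changed in both directions, while the called genes that fold or process it were all lower. Lists of them are described by counts and medians beside the whole table. There 21.7% of genes tested were higher, 23.5% lower and the median log2 fold change was -0.0013. Without knockdown library 3, 38.6% of all genes tested were higher and 39.9% lower. Without control library 1, 2 or 3, 2443, 2608 and 2484 of 16245 genes were higher and 2658, 2778 and 2648 lower. List counts with a library left out are to be read beside these. In the SRF pathway list 17 of 18 genes were tested, with 3 higher, 3 lower and a median log2 fold change of 0.30. Abra, an actin-binding activator of SRF in striated muscle, fell by 7.80 ± 0.48 (SE) on the log2 scale, with counts of 6.63, 6.69 and 23.5 in the knockdown and 2574, 2362 and 2624 in control. Srf itself had counts of 4154, 3786 and 2313 in the knockdown and 6626, 6473 and 6765 in control, a log2 fold change of -0.998 ± 0.23 (SE, adjusted p = 0.016 in limma, and up to 0.062 with 1 library left out). The ternary complex factor Elk3 rose by 0.92 ± 0.14 and the cofilin phosphatase Ssh2 by 0.74 ± 0.13. The list had 9 higher and 4 lower without knockdown library 3, and without control library 1, 2 or 3 it had 3 higher and 1 lower.

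Actin needs the chaperonin CCT to fold. In the folding and processing list 17 of 18 genes were tested, with 10 lower, 0 higher and a median log2 fold change of -0.72. At an unadjusted p under 0.05 in limma 0 were higher, and edgeR and DESeq2 also called 0 higher. Of the 8 CCT subunits, a subset formed after values were seen, 7 fell, with log2 fold changes from -1.497 to -0.33 over the 8, while 1 of the 6 prefoldin subunits fell. Cct6a had counts of 4691, 4776 and 5526 in the knockdown and 13429, 13535 and 13462 in control, a log2 fold change of -1.43 ± 0.12 (SE, adjusted p = 0.00026, limma), and Cct3 fell by 1.497 ± 0.13. Leaving out knockdown library 3 gave 16 lower and 1 higher.

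Among proteins that bind actin monomers or take filaments apart, 22 of 23 were tested, with 7 higher, 6 lower and a median of 0.06. Gelsolin, Gsn, which severs and caps filaments, had counts of 209944, 212967 and 155042 in the knockdown and 13546, 13837 and 14333 in control, a log2 fold change of 3.78 ± 0.19 (SE, adjusted p = 4.8e-05, limma). Coro2a, a coronin, had 467 recovered reads in the knockdown libraries and 2 in control libraries, a ratio of 196 scaled by the size factors (exact 95% counting interval 53.9 to 1620.4, which covers counting error only). Cap2, the cyclase-associated protein of striated muscle, fell by 10.52 ± 1.18 on the log2 scale (-11.93 without knockdown library 3). Its counts were 0, 0.836 and 24.6 in the knockdown and 5363, 5184 and 5308 in control. In knockdown libraries 1 and 2 they are so low that the 1 added to each value helps set the size of this fall. The muscle cofilin Cfl2 fell by 1.24 ± 0.14. There were 10 higher and 11 lower without knockdown library 3, and without control library 1, 2 or 3 it had 6 higher and 3 lower.

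For nucleation and elongation 29 of 30 genes were tested, with 7 higher, 8 lower and a median of -0.16. The formin Daam2 had counts of 77.9, 85.3 and 33.5 in the knockdown and 4548, 4604 and 4342 in control, a log2 fold change of -6.19 ± 0.36 (SE, adjusted p = 7.1e-05, limma), whereas its relative Daam1 rose by 0.88 ± 0.12. Cobl, a nucleator with WH2 domains, fell by 3.41 ± 0.17. Of 9 subunits of the Arp2/3 complex, a subset formed after values were seen, 1 rose and 1 fell. Their log2 fold changes lay between -0.65 and 0.63, and the riser was Actr2 at 0.63 ± 0.099. The variant Arp3 subunit Actr3b, listed with the actin-related proteins, was not among these 9 and rose by 2.78 ± 0.29. Leaving out knockdown library 3 gave 14 higher and 14 lower.

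Of 27 capping, crosslinking and bundling genes 24 were tested, with 5 higher, 6 lower and a median of -0.07, which did not change to 2 decimals with the 1 gene without knockdown reads, Xirp2, at its count bound of 3 reads per library. Nrap, which joins actin to membranes and Z-discs of forming myofibrils, fell by 8.02 ± 0.16 on the log2 scale, and Xirp1, a filament-binding repeat protein, fell by 8.25 ± 0.18. The adducin Add3 rose by 2.74 ± 0.24 and Vill, a villin relative, by 4.12 ± 0.41. With knockdown library 3 left out, 13 were higher and 10 lower, and without control library 1 or 3, 3 were higher and 5 lower.

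The partners of alpha-actinin had 25 of 27 genes tested, with 14 lower, 3 higher and a median of -0.81. Myoz2, a Z-disc protein that binds alpha-actinin and calcineurin, had counts of 23.2, 18.4 and 22.4 in the knockdown and 6619, 5965 and 6678 in control, a log2 fold change of -8.17 ± 0.15 (SE, adjusted p = 3.7e-06, limma). Synpo2l, another Z-disc protein, fell by 7.06 ± 0.22. At the other end Lpp, an adhesion protein that binds the widely expressed alpha-actinins, rose by 1.72 ± 0.16, with counts of 10128, 9729 and 7390.4 in the knockdown and 2839, 2838 and 2530.1 in control, and the LIM protein Csrp1 rose by 0.85 ± 0.13. With knockdown library 3 left out, 19 were lower and 5 higher. Several list members belong to the sarcomere, so this list overlaps in kind with Actn2 and Actn3 and is no independent measure of them.

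The actin-related proteins, which share the actin fold but do not form these filaments, had 8 of 9 genes tested, with 2 higher, 0 lower and a median of -0.01. At an unadjusted p under 0.05 in limma 3 were lower, edgeR called 0 lower and DESeq2 called 2 lower. Actr3b, a variant Arp3 subunit, rose by 2.78 ± 0.29, with counts of 87.1, 87.8 and 139 in the knockdown and 11.99, 15.2 and 15.2 in control. Actr6, of a chromatin remodelling complex, rose by 1.22 ± 0.30 (SE, adjusted p = 0.018 in limma, and up to 0.069 with 1 library left out). Without knockdown library 3, 4 were higher and 3 lower, and without control library 1 or 3, 1 was higher.

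**Figure D5:**
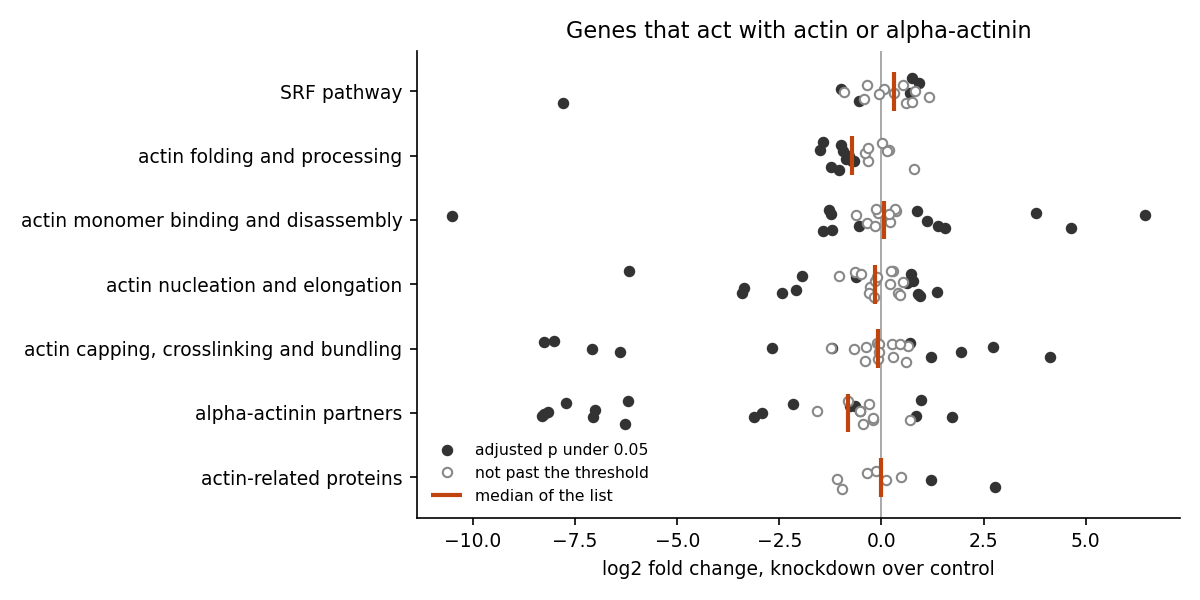
Log2 fold change, knockdown over control, of each tested gene in the lists of actin regulators and partners, with filled symbols for an adjusted p under 0.05 in limma and a bar at the median of each list (points are spread vertically for visibility). Medians run from -0.81 for alpha-actinin partners to 0.30 for the SRF pathway, and each list except folding and processing and actin-related proteins has called genes on both sides of 0.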

How the data were processed

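Sequencing measured RNA in 6 C2C12 libraries. The submitters' processing notes name Trimmomatic 0.36, Subread 1.5.2 with featureCounts, DESeq2 and the build GRCm38; the sources used here do not state the aligner, annotation release or strand setting. The authors deposited, per gene, a normalised signal for each library (reads over a size factor) and a log2 fold change, p-value and adjusted p-value, as the file headers name them. Dividing by what 1 read is worth in a library gave whole reads for 100% of values (tolerance 0.01 reads).

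Groups came from the sample titles. Because the values are normalised, the main test was limma 3.58.1 (R 4.3.3, trended variance) on log2(value + 1) over the 16245 genes that reached 10 in 3 or more libraries, without a block. As alternatives on recovered reads, edgeR 4.0.16 called 3765 genes higher and 3579 lower, and DESeq2 1.42.0 called 4343 higher and 4118 lower. The procedure was tested on simulated reads. Shares and ratios were compared by exact permutation. Exonic lengths came from GENCODE M21 (GRCm38) and promoters from RefSeq. Other alternatives were TMM and upper-quartile scaling, pseudocounts of 0.5 and 5, no filter, a minimum of 50, no trend, a replicate block and leaving out each library; principal transcript lengths and edgeR without knockdown library 3 were chosen after seeing the data. To look for libraries deposited more than once, replicates were compared: chi-square per gene was 3.85 to 773 within the knockdown and 6.85 to 15.9 within control, where 1 is sampling noise, so none were merged.

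The members and gene lists were chosen with earlier results of these data known. Named genes were the 10 members, Adamtsl2, up to 2 per direction of each list by smallest adjusted p, and the 3 nearest profiles of each member, of which 2 are not reported here; Malat1, Myh11, Xirp2, desmin and calsequestrin 2, and the genes sharing sequence windows were named after their values were seen.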

Additional observations from a re-analysis of the deposited data

How the results depend on the processing

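The 6 members called lower stayed lower, and passed, under each alternative run, with log2 fold changes from -11.26 to -10.34 for Actn2, the widest range of the 6. With 1 library left out, genes called lower numbered 2648 to 6485 and genes called higher 2443 to 6269, most without knockdown library 3, and members called higher 0 to 1, that member being Actn1. edgeR without knockdown library 3 called 6459 genes lower, 6489 higher and 1 member higher. Members that did not pass changed sign there: Actg1 was at 0.0714 in limma (range -0.337 to 0.0714 with 1 library left out) and 0.0903 in edgeR, and Actn4 at 0.00079 in edgeR. With 1 library left out, the knockdown minus control difference in the log2 ratio of Acta2 to Actg2 ranged from -0.17 to 0.0107. For Actb to Actg1 that difference ranged from -0.0402 to 0.70. The cause was not tested. SRF pathway genes called higher were 3 in the main fit, against 7 with upper-quartile scaling, 6 in edgeR, 8 in DESeq2 and 5 with a replicate block, and DESeq2 called 2 actin-related proteins lower, against 0. Upper-quartile scaling moved the median of all genes to 0.11 on the log2 scale. Same-numbered libraries did not deviate together in every pair (correlations of 0.0169, 0.105 and 0.143), so the numbers were not taken to pair samples. The fit with the replicate block called 6 members lower and 0 higher, and 3301 genes lower and 3010 higher. Actn2 in the knockdown rests on 9 to 21 reads per library, so depth limits its fold change more than that of other members.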
